A study of Mus musculus with 7 samples.

Results

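The drug-metabolising cytochrome P450 genes of the subfamilies Cyp1a, Cyp1b, Cyp2c to Cyp2u and Cyp3a were examined in the livers of mice fed CDAHFD, a high-fat diet without choline whose protein is replaced by defined L-amino acids and which serves as a model of steatohepatitis. They were taken by symbol, as every row of the count table named Cyp1a, Cyp1b, Cyp2c to Cyp2u or Cyp3a followed by digits alone, which gave 43 of the 23347 genes in the table. The pattern left out Cyp2a, Cyp2b, pseudogenes and genes with a letter after the number, such as Cyp3a41a. Of these 43 genes, 14 belong to Cyp2c, 8 to Cyp2d, 7 to Cyp3a, 5 to Cyp2j and 2 to Cyp1a, and Cyp1b, Cyp2e, Cyp2f, Cyp2g, Cyp2r, Cyp2s and Cyp2u have 1 each.

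All 7 mice were males on the C57BL/6 background, 6 to 8 weeks old at the start of the diet and fed CDAHFD for 15 weeks. The 4 controls were B4galt1 flox/flox littermates, which the sample labels call WT. By their label and the study's breeding, the other 3 carried the same floxed alleles and Cre recombinase driven by the albumin promoter. This Cre is meant to delete B4galt1, a galactosyltransferase of the Golgi, in hepatocytes while the other liver cells keep it. These 3 mice are called B4galt1 hep-/- here, after their label (B4-HKO). Total RNA of whole liver was sequenced as 1 library per mouse, with 37838654 to 39668509 counts in the flox/flox mice and 30608271 to 34586588 in the mice labelled hep-/-.

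Cytochromes P450 are heme enzymes of the endoplasmic reticulum that insert oxygen into drugs, toxins, steroids, fatty acids and bile acids, using electrons passed on by the reductase Por. In the liver most of their mRNA comes from hepatocytes, and many of them are zoned, with higher levels around the central vein than around the portal tract. The receptors AhR, CAR and PXR raise their transcription when ligands arrive, and in mice the pulses of growth hormone set several Cyp2c, Cyp2d and Cyp3a genes at different levels in males and females.

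The targeted gene was read first. B4galt1 measured 48.7, 53.0, 49.2 and 51.6 CPM (counts scaled to the library total, TMM-normalized) in flox/flox replicates 1 to 4 and 28.4, 23.9 and 53.7 CPM in hep-/- replicates 1 to 3. Replicates 1 and 2 labelled hep-/- lay under all controls, and replicate 3 lay above them all. The log2 fold change, here always hep-/- minus flox/flox, was -0.52 (SE 0.26, adjusted p = 0.181, edgeR quasi-likelihood test with Benjamini-Hochberg adjustment over 15179 genes). In bulk liver this gene is also read from cells that keep it, in the controls as well. Why replicate 3 lay above the controls was not tested, and its label is not settled here. The members' values are given with and without that mouse where its removal changes their call.

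Several Cyp genes are near copies of another gene of their cluster, which matters for both their reads and their regulation. The sequences upstream of called genes and of such copies are shown here. Differences between the copies were not tested. Promoters were found for 36 of the 43 genes in the RefSeq table of GRCm38.p6. The count table was made on GRCm39, so these coordinates hold for GRCm38.p6 alone. The first set holds 4 genes of chromosome 19, all on the minus strand, of which Cyp2c67 fell in the mice labelled hep-/- while the other 3 did not pass the test. Each line is 100 bases from before the RefSeq start, 5′ to 3′. In each set the lines were placed at their best match without gaps, so they lie at different distances from the start. Here they end 81, 33, 1 and 31 bases before it in Cyp2c67, Cyp2c68, Cyp2c40 and Cyp2c69. Capitals mark the 13 positions at which the 4 sequences are not all the same.
Cyp2c67: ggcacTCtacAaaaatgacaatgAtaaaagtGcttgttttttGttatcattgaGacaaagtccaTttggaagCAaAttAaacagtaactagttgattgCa
Cyp2c68: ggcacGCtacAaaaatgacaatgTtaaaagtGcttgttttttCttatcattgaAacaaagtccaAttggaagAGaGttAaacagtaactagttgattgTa
Cyp2c40: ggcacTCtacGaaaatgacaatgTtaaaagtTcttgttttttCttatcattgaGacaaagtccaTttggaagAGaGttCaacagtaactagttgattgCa
Cyp2c69: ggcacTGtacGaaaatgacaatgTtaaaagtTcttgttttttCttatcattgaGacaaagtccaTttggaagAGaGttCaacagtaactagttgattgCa
They lie at chr19:39649123-39649222, chr19:39741134-39741233, chr19:39812815-39812914 and chr19:39886800-39886899. Cyp2c40 and Cyp2c69 share 99 of these 100 bases, and Cyp2c67 and Cyp2c68 share 91.

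The second set holds Cyp2d9, which fell, and Cyp2d11 of the same chromosome, which did not pass the test. Cyp2d10, not shown, lies between them. The 2 windows lie at chr15:82452267-82452366 on the plus strand and chr15:82394048-82394147 on the minus strand, and capitals mark the 10 bases that differ.
Cyp2d9: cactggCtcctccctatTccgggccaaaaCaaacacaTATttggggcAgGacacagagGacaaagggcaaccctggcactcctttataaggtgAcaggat
Cyp2d11: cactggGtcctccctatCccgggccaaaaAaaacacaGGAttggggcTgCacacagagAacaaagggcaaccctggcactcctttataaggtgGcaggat
The third set holds Cyp3a44, which rose, and Cyp3a16, which had too few counts to be tested. Both lie on the minus strand, at chr5:145805877-145805976 and chr5:145469730-145469829, and capitals mark the 5 bases that differ.
Cyp3a44: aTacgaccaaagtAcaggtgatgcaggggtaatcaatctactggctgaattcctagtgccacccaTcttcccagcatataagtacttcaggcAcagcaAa
Cyp3a16: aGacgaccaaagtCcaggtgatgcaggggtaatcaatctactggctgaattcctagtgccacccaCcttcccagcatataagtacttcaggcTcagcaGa
The whole 250 bases before the start are shown for Cyp2e1, the most abundant of these mRNAs, and for Cyp2j9, which rose. In Cyp2j9 the capitals mark the single match to GCGTG, the core of the site that AhR binds, and Cyp2e1 holds no match to any motif searched. Cyp2e1 lies at chr7:140763569-140763818 on the plus strand and Cyp2j9 at chr4:96591486-96591735 on the minus strand.
Cyp2e1: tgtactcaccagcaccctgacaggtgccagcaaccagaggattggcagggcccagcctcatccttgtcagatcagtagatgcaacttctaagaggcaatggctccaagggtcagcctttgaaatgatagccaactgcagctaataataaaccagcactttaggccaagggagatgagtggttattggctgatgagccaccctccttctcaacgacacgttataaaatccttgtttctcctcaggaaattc
Cyp2j9: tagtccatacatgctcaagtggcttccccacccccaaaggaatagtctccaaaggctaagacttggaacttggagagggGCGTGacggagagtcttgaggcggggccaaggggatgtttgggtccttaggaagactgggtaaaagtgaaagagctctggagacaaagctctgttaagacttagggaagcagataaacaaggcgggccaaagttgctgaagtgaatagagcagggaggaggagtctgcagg

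Short motifs were counted on both strands of the 250 bases before the start of each promoter. The AhR core GCGTG occurred in 5 of 36 promoters (Cyp1a1, Cyp1b1, Cyp2c68, Cyp2j9 and Cyp2j13), or 13.9%, and in 28.2% of all 27025 promoters. AGTTCA, a half-site of nuclear receptors such as PXR and CAR, occurred in 4 (Cyp2c40, Cyp2c50, Cyp2c69 and Cyp3a11), or 11.1%, against 11.9% of all promoters. TTCNNNGAA, the site of STAT5, occurred in 0 of 36 and in 7.18% of all promoters. Of the 7 genes called below, Cyp2j9 was the only one with a match to any of these letters in this window.

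The summed mRNA of the 43 genes was lower in every mouse labelled hep-/- than in every control. The sum was 16176 ± 943 CPM (SD, n = 4) in flox/flox mice and 8562 ± 2208 CPM (SD, n = 3) in the mice labelled hep-/-. Cyp2e1 alone made up 57.6% ± 2.01 of these counts in the controls (SD, n = 4) and 42.8% ± 5.39 in the others (SD, n = 3). Without Cyp2e1 the sum was 6869 ± 651 against 4823 ± 854 CPM, and the 2 groups again did not overlap. In bulk liver, fewer hepatocytes and less RNA per hepatocyte cannot be told apart. The summed level of 8 other hepatocyte markers was 78166 to 119977 CPM in controls and 98900 to 154905 CPM in the mice labelled hep-/-, and the fold change of 1 of the 8 was below 0.

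**Figure D1:**
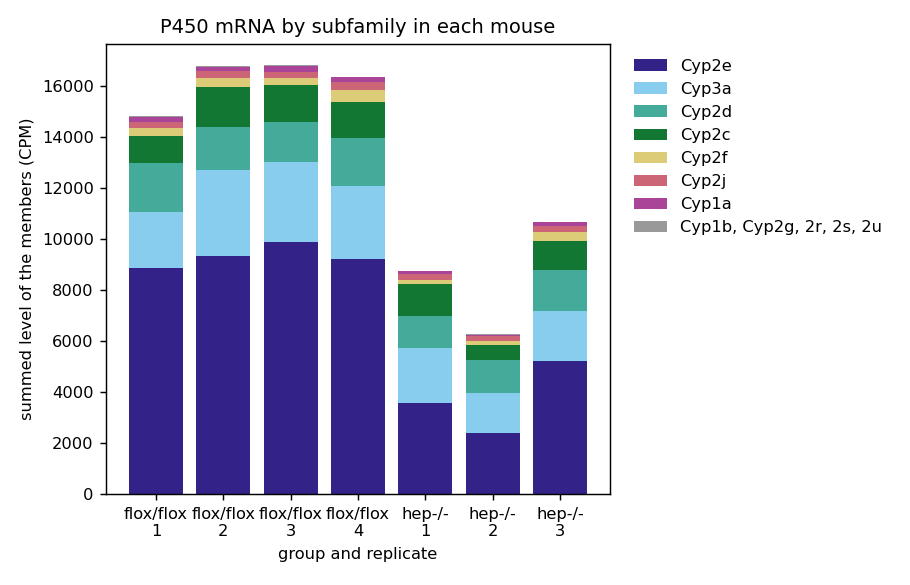
Summed level of the members in each mouse, in TMM-normalized CPM, stacked by subfamily. The 4 flox/flox bars stand above all 3 hep-/- bars, Cyp2e (the gene Cyp2e1) is the largest block in each of them, and hep-/- replicate 2 has the lowest bar.

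The other large subfamilies differed less than Cyp2e1. Mean summed levels in flox/flox and hep-/- mice were 2906 and 1891 CPM for Cyp3a, 1376 and 993 for Cyp2c, 1754 and 1374 for Cyp2d, 345 and 219 for Cyp2f and 274 and 223 for Cyp2j. Of these 5 sums, Cyp3a alone did not overlap between the groups. As shares of all members' counts, Cyp2d went from 10.9% ± 1.64 to 16.5% ± 3.27, Cyp3a from 17.9% ± 2.24 to 22.6% ± 3.75 and Cyp2c from 8.47% ± 0.905 to 11.5% ± 2.62 (SD, n = 4 and n = 3). These sums and shares are given as a description, with no test.

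Members were then tested one by one. The filter on low counts kept 38 of the 43, and Cyp2c65, Cyp2d34, Cyp2j8, Cyp2j13 and Cyp3a16 stayed under it in both groups. Of the 38, 5 were called lower (Cyp2d9, Cyp2r1, Cyp2e1, Cyp2c38 and Cyp2c67), which required an adjusted p under 0.05 together with a log2 fold change beyond 0.58 in size, or 13.2%, against 7.83% of all 15179 genes tested. Cyp2j9 and Cyp3a44 were called higher, 5.26% against 8% of all genes, and in both directions together 15.8% of all genes were called. The remaining 31 members did not pass, and 17 of the 38 had an unadjusted p under 0.05, as did 32.9% of all genes. The log2 fold change was negative in 25 of 38 members, against 48.7% of all genes, and its median was -0.46, against 0.02 over all genes.

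The levels of the 2 groups did not overlap, with all mice labelled hep-/- below all controls, in 10 members (26.3%, against 15% of all genes), and above in 2 members (5.26%, against 13.6%). In either direction 28.6% of all genes did not overlap. Without hep-/- replicate 3, 12 members were called (13.8% of all genes then), 10 of them lower, and DESeq2 on all mice called 13 (21.3% of all genes). All 7 genes above were among the members called in both.

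**Figure D2:**
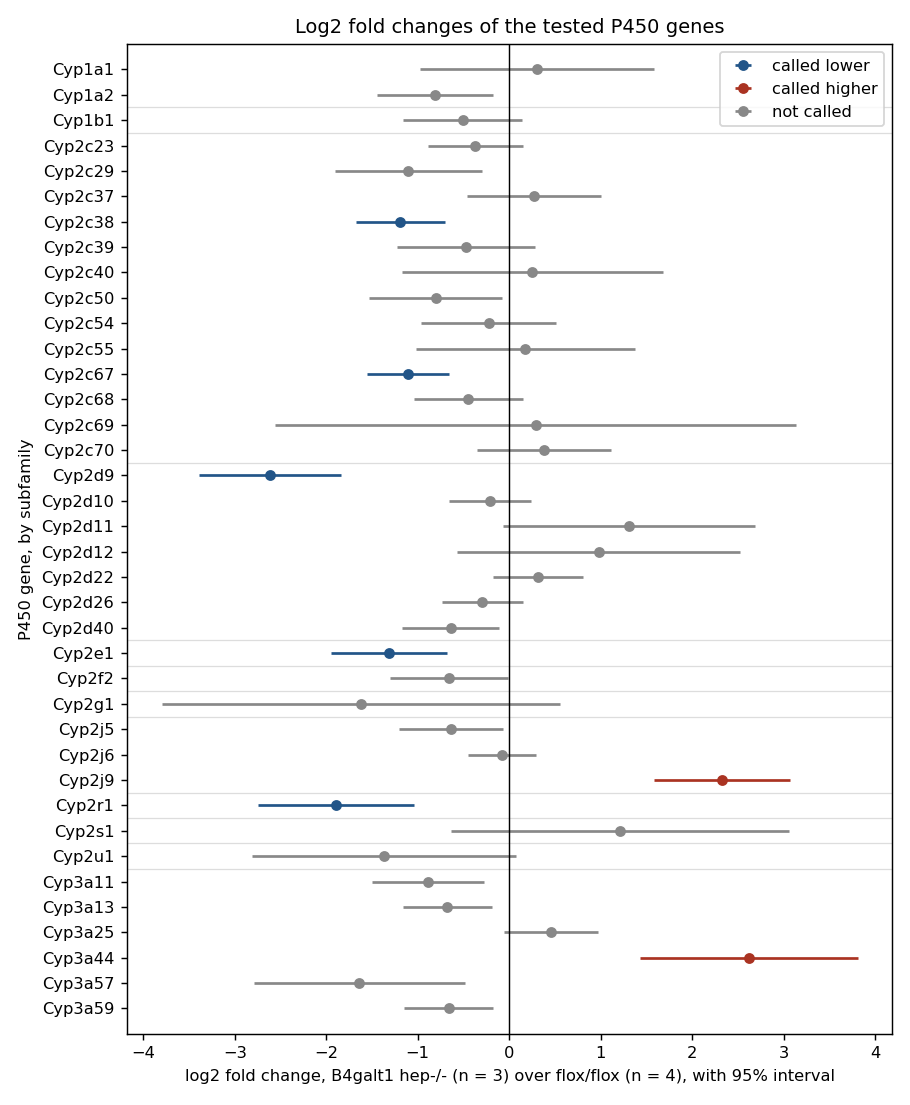
Log2 fold change (hep-/-, n = 3, over flox/flox, n = 4) of the 38 tested members, by subfamily, with 95% intervals from edgeR. Blue marks the 5 genes called lower, red the 2 called higher and grey the 31 not called, of which 20 lie below 0 and 11 above.

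Cyp2e1 oxidises ethanol, acetone, fatty acids and small drugs such as paracetamol, and is restricted to the pericentral hepatocytes. It measured 8848, 9314, 9868 and 9198 CPM in flox/flox mice and 3584, 2417 and 5215 CPM in the mice labelled hep-/-. The controls lay within a narrow band and all 3 other mice lay far below it. Its log2 fold change was -1.32 (SE 0.29, adjusted p = 0.015), or 2.49-fold lower. Without replicate 3, the highest of the 3, the change was -1.64. On the FPKM scale, which corrects for gene length and so allows genes to be set side by side, it was the most abundant of these mRNAs, with a mean of 5493 in controls and 1975 in the others.

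Cyp2d9, which hydroxylates testosterone and is a male-biased gene under growth hormone control, changed most among the genes called lower. It measured 358, 123, 208 and 246 CPM in flox/flox mice and 33.6, 29.7 and 51.1 CPM in the mice labelled hep-/-. The controls spread widely, yet the lowest of them stood above the highest of the other group. Cyp2d9 thus had a log2 fold change of -2.62 (SE 0.35, adjusted p = 0.003), or 6.13-fold lower.

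The rest of the Cyp2d subfamily did not pass the test. Cyp2d26, with a mean FPKM of 450 the most abundant Cyp2d in controls, had 763 to 898 CPM there and 630, 635 and 825 CPM in the mice labelled hep-/- (log2 fold change -0.29, 95% interval -0.74 to 0.15, adjusted p = 0.343). Cyp2d10 had a log2 fold change of -0.21 (interval -0.66 to 0.24), Cyp2d22 of 0.31 (-0.18 to 0.80) and Cyp2d40 of -0.64 (-1.17 to -0.11, adjusted p = 0.092). Cyp2d40 did not overlap between the groups, with all 3 mice lower. Cyp2d11, whose upstream sequence is so close to that of Cyp2d9, had only 0.164 to 0.904 CPM in controls and 0.682 to 1.18 in the others, with a log2 fold change of 1.31 (interval -0.07 to 2.69). Without control replicate 4, the highest of the 4, it was called higher (2.10, adjusted p = 0.043, edgeR). Cyp2d12 was as low, with 0.151 to 2.50 CPM over all mice.

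Cyp2d9 is not a unique sequence. Of the 50-base words in the GENCODE M21 transcripts of Cyp2d9, 29.0% occur in another gene, most often in Cyp2d12, and the corresponding share was 40.5% for Cyp2d10 and 37.2% for Cyp2d11. How the authors counted reads that fit several genes is not given in the sources used here. Cyp2d10 and Cyp2d11 together had a log2 fold change of -0.21 when their counts were summed.

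Among the 14 Cyp2c genes, which epoxidise arachidonic acid and oxidise many drugs, 13 were tested, and Cyp2c38 and Cyp2c67 were called lower. Cyp2c67 measured 151, 154, 134 and 147 CPM in flox/flox mice and 79.6, 50.4 and 73.4 CPM in the mice labelled hep-/-. The 2 groups were well apart, with little spread in the controls. Its log2 fold change was -1.11 (SE 0.21, adjusted p = 0.008). Cyp2c38 measured 28.5, 36.5, 40.7 and 25.9 CPM against 13.8, 11.9 and 17.6 CPM. All 3 mice lay below the lowest control, and the log2 fold change was -1.19 (SE 0.22, adjusted p = 0.008).

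Cyp2c67 shares 52.8% of its 50-base words with other genes, first of all Cyp2c40, and Cyp2c38 shares 7.45%. When the counts of Cyp2c40, Cyp2c67, Cyp2c68 and Cyp2c69 were summed, the log2 fold change of the sum was -0.65 and did not pass (adjusted p = 0.093, edgeR). The summed level was 324 to 467 CPM in controls and 330, 169 and 243 CPM in the others, so replicate 1 lay inside the control range. Cyp2c68 contributed most of it, with 173 to 304 CPM in controls and 241, 117 and 167 CPM in the mice labelled hep-/- (log2 fold change -0.45, interval -1.04 to 0.15).

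Cyp2c40 and Cyp2c69, known as female-biased genes, were near the bottom of the range. Cyp2c69 had 1, 194, 116 and 11 counts in flox/flox replicates 1 to 4 and 213, 4 and 7 counts in hep-/- replicates 1 to 3. The mice of each group differed from one another far more than the groups did, and the interval of the log2 fold change ran from -2.56 to 3.13. Cyp2c40 had 0.529, 4.32, 1.01 and 0.706 CPM against 2.11, 1.45 and 2.30 CPM, with a log2 fold change of 0.25 (interval -1.17 to 1.68). These intervals do not show that the 2 genes stayed the same.

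Of the remaining Cyp2c genes, Cyp2c50 was the most abundant, with a mean FPKM of 141 in controls. It had 255, 452, 467 and 436 CPM in flox/flox mice and 284, 114 and 294 CPM in the others, where control replicate 1 fell among the lower values (log2 fold change -0.80, adjusted p = 0.116). Cyp2c29, an epoxygenase, had a log2 fold change of -1.11 (SE 0.37, adjusted p = 0.062). It passed without hep-/- replicate 3, at -1.58 (adjusted p = 0.024, edgeR), and also without control replicate 1. In all, Cyp2c29 was called in 8 of its 18 alternatives, DESeq2 and voom with sample quality weights among them. Cyp2c70, which makes the muricholic acids of mouse bile, had 39.7 to 57.7 CPM in controls and 48.9, 29.1 and 101 CPM in the others, with replicate 3 above all other mice. Cyp2c23, Cyp2c39, Cyp2c54, Cyp2c37 and Cyp2c55 had log2 fold changes of -0.37, -0.47, -0.22, 0.27 and 0.17, and all of their intervals spanned 0.

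**Figure D3:**
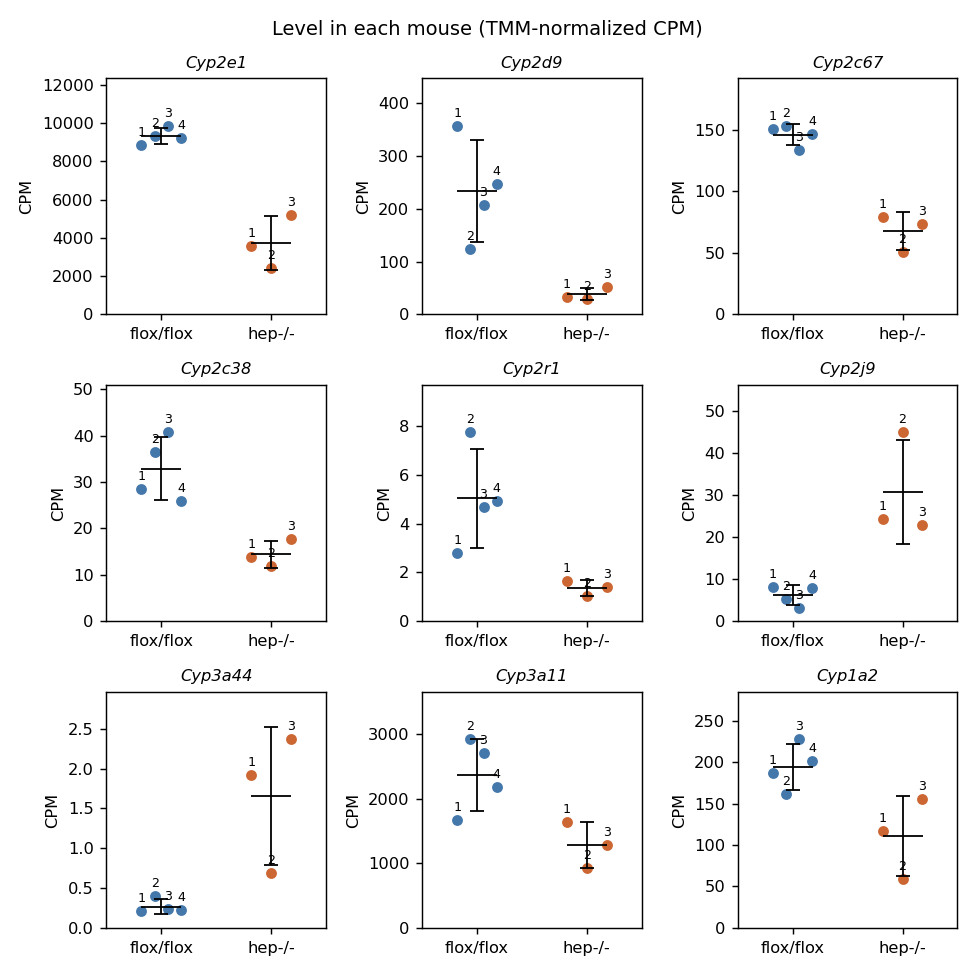
Level of the 7 called genes and of Cyp3a11 and Cyp1a2 in each mouse, in TMM-normalized CPM on a linear axis from 0; points are mice with their replicate number, bars are mean ± SD (n = 4 flox/flox, n = 3 hep-/-). In all 9 genes the 2 groups of points do not overlap, with Cyp2j9 and Cyp3a44 higher and the other 7 lower in the mice labelled hep-/-.

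The Cyp3a subfamily, which metabolises more drugs than any other, had members on both sides of 0. Cyp3a11, its main member in mouse liver and a target of PXR, measured 1673, 2925, 2711 and 2187 CPM in flox/flox mice and 1639, 930 and 1284 CPM in the mice labelled hep-/-. The groups did not overlap, but control replicate 1 and hep-/- replicate 1 almost met. The log2 fold change was -0.89 (SE 0.28, interval -1.50 to -0.28) at an adjusted p of 0.051 in the edgeR test, just short of the threshold. Cyp3a13 (-0.68, adjusted p = 0.060) and Cyp3a57 (-1.64, adjusted p = 0.056) also lay lower without overlap, and Cyp3a59 had -0.66 (adjusted p = 0.063) with control replicate 1 inside the other group's range. DESeq2 and voom with sample quality weights each called all 4 of these genes lower. Cyp3a59 shares 28.0% of its 50-base words with other genes, first of all Cyp3a25. When the counts of Cyp3a25 and Cyp3a59 were summed, the log2 fold change was 0.42 and did not pass (adjusted p = 0.235, edgeR). Without hep-/- replicate 3, edgeR called Cyp3a13 (-0.92, adjusted p = 0.026) and Cyp3a59 (-0.89, adjusted p = 0.036), and not Cyp3a11 or Cyp3a57. Cyp3a11 was called without control replicate 1 or hep-/- replicate 1, and in 9 of its 18 alternatives in all, and Cyp3a57 was called without control replicate 3.

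Cyp3a44, a female-biased gene, was called higher from a very low level. It had 9, 16, 10 and 8 counts in flox/flox mice and 59, 23 and 72 counts in the mice labelled hep-/-, or 0.207 to 0.402 CPM against 1.92, 0.694 and 2.37 CPM. All 3 mice stood above all controls. The log2 fold change was 2.62 (SE 0.54, adjusted p = 0.011), or 6.14-fold higher, and with replicate numbers as a block the adjusted p in edgeR was 0.053. Cyp3a44 shares 26.5% of its 50-base words with other genes, most with Cyp3a41a, which had 0.292 CPM in hep-/- replicate 1 and no counts in the other 6 mice. Cyp3a16, so close to Cyp3a44 upstream, stayed between 0 and 0.0987 CPM in all mice, at or under 3 counts. Cyp3a25, second in abundance in the subfamily, had 281 to 488 CPM in controls and 430, 542 and 534 in the others (log2 fold change 0.46, interval -0.06 to 0.97).

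The Cyp2j enzymes turn arachidonic acid into epoxides. Cyp2j9 measured 8.16, 5.32, 3.09 and 7.85 CPM in flox/flox mice and 24.2, 44.8 and 22.9 CPM in the mice labelled hep-/-. Each of the 3 exceeded the highest control by a wide margin, and the log2 fold change was 2.33 (SE 0.34, adjusted p = 0.004), or 5.02-fold higher. Its transcript shares 0 of its 50-base words with any other gene. Cyp2j5, the most abundant Cyp2j with a mean FPKM of 89.5 in controls, had a log2 fold change of -0.64 (interval -1.20 to -0.07, adjusted p = 0.110), and Cyp2j6 of -0.08 (interval -0.45 to 0.29). Cyp2j8, too low to be tested, had 6, 1, 0 and 1 counts in flox/flox mice and 5, 15 and 8 in the mice labelled hep-/-, or 0 to 0.138 CPM against 0.162 to 0.452 CPM, also higher without overlap.

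Cyp2r1, the microsomal enzyme that starts the activation of vitamin D, was called lower. It measured 2.81, 7.75, 4.69 and 4.92 CPM in flox/flox mice and 1.66, 1.03 and 1.38 CPM in the mice labelled hep-/-. Control replicate 1 was the nearest to the lower group, which it did not enter. In log2 terms the change was -1.89 (SE 0.39, adjusted p = 0.011), or 3.72-fold lower. Its words are also unique to it.

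Cyp1a2, an AhR target of pericentral hepatocytes that oxidises caffeine and arylamines, measured 187, 162, 228 and 201 CPM in flox/flox mice and 117, 59.4 and 155 CPM in the mice labelled hep-/-. The groups did not overlap, with replicate 3 just under the lowest control. The log2 fold change was -0.81 (interval -1.45 to -0.18, adjusted p = 0.077), and -1.14 without replicate 3 (adjusted p = 0.032, edgeR). In all, Cyp1a2 was called in 5 of its 18 alternatives, DESeq2 among them. Cyp1a1, the most inducible AhR target, was at 0.302 to 1.20 CPM over all mice (log2 fold change 0.30, interval -0.97 to 1.58). Cyp1b1, found mainly outside hepatocytes, had 14.6, 12.2, 14.4 and 5.96 CPM against 9.58, 8.02 and 7.33 CPM (log2 fold change -0.51, interval -1.16 to 0.14).

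Cyp2f2, which activates naphthalene and is periportal in liver, had 328, 347, 261 and 443 CPM in flox/flox mice and 151, 171 and 334 CPM in the mice labelled hep-/-. Replicates 1 and 2 lay below all controls and replicate 3 among them. Over all mice the log2 fold change was -0.65 (interval -1.30 to -0.01, adjusted p = 0.147), and without replicate 3 it was -1.11 (adjusted p = 0.022, edgeR). In all, Cyp2f2 was called in 4 of its 18 alternatives, voom with sample quality weights among them. Cyp2u1, a hydroxylase of long-chain fatty acids, had 0.492 to 2.62 CPM against 0.162 to 0.888 (log2 fold change -1.37, interval -2.81 to 0.08). Cyp2g1, an olfactory P450, and Cyp2s1, an epithelial one, were also near the limit of detection, at 0.0302 to 1.10 and 0.0658 to 2.29 CPM over all mice, with intervals of -3.80 to 0.55 and -0.63 to 3.05.

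The partners of the P450s were read next. Among the 7 tested genes for electron transfer and heme handling, Cyb5b, the cytochrome b5 of the outer mitochondrial membrane, was called lower, with 135, 168, 178 and 125 CPM in flox/flox mice and 72.4, 45.3 and 84.5 CPM in the others (log2 fold change -1.17, adjusted p = 0.012). Por, the reductase that all microsomal P450s need, had 469 to 723 CPM against 397, 369 and 590 CPM, which overlapped (log2 fold change -0.34, SE 0.24). The median of these 7 was -0.19, and 7.83% of all genes were called lower.

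Among the 17 tested receptors and regulators of P450 genes, 1 was called lower and 1 higher, where 7.83% of all genes were called lower and 8% higher. Rxra, the partner with which PXR and CAR bind DNA, measured 383, 305, 294 and 321 CPM in flox/flox mice and 151, 128 and 162 CPM in the mice labelled hep-/- (log2 fold change -1.15, SE 0.20, adjusted p = 0.006). Nr1i2, which encodes PXR itself, measured 94.4, 90.6, 94.9 and 97.5 CPM against 155, 191 and 150 CPM (log2 fold change 0.81, SE 0.18, adjusted p = 0.013). Both separated fully, in opposite directions. The call of Nr1i2 was lost without control replicate 2 and with the replicate block. Ahr (-0.18), Nr1i3 encoding CAR (0.53), Hnf4a (0.12), Foxa2 (1.04, adjusted p = 0.072) and Cebpa (-0.67, adjusted p = 0.079) did not pass in edgeR, although Cebpa lay lower without overlap. DESeq2 called 4 of the list, Foxa2 and Cebpa besides Rxra and Nr1i2, and voom with sample quality weights called 2. The median of the list was -0.15.

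Other targets of the same receptors were few in number. Of the 2 tested AhR targets outside the P450s, Tiparp was called higher (0.72, adjusted p = 0.043), with 8.07 to 12.0 CPM in controls and 14.3, 14.9 and 20.1 in the others, a call lost on leaving out any mouse other than control replicate 3. Of the 4 tested targets of CAR and PXR, the exporter Abcc3 was called lower (-0.74, adjusted p = 0.027), with 189 to 273 CPM in controls and 132 to 136 in the others, a call lost without control replicate 2 or 3 or hep-/- replicate 1 or 2. Alas1, which starts heme synthesis, had -0.88 (adjusted p = 0.059) in edgeR with hep-/- replicate 3 among the controls, and DESeq2 called it besides Abcc3. Of all genes, 15.8% were called in edgeR. Cyp2b10, the classic CAR target, had counts in hep-/- replicate 3 alone, at 0.296 CPM, and was not tested.

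Genes known to differ between male and female liver were read in these male mice. Of 10 tested female-biased genes outside the subfamilies described here, 6 rose and 0 fell (median log2 fold change 1.73), namely Sult2a1 (5.90), Cyp2b13 (4.70), Sult2a2 (4.40), Cyp2a4 (3.01), Cux2 (2.03) and Cyp2b9 (1.003), and the other 4 did not pass. Of 8 tested male-biased genes, 5 fell and 0 rose (median -2.06), namely Slco1a1 (-3.54), Ugt2b38 (-3.40), Cyp4a12a (-2.85), Cyp4a12b (-2.73) and Cyp7b1 (-1.39), and the other 3 did not pass, among them Bcl6 at 0.17. Beside them stand Cyp2d9, the 1 male-biased member, at -2.62, and the 3 tested female-biased members, Cyp3a44 at 2.62, Cyp2c69 at 0.29 and Cyp2c40 at 0.25. Of all genes, 8% were called higher and 7.83% lower in edgeR. The 2 lists were written with earlier results of these data known. Some calls were lost when 1 mouse was left out, namely Cux2 without hep-/- replicate 2, Ugt2b38 without control replicate 2 or 4 or hep-/- replicate 1, Cyp7b1 without control replicate 4 or hep-/- replicate 1 or 2, Slco1a1 without control replicate 3 or 4 or hep-/- replicate 1 or 2, and Cyp2b9 without control replicate 3 or 4 or any 1 of the hep-/- mice. None of these 5 genes changed direction. The size of some changes rested on 1 mouse. Without hep-/- replicate 3, Slco1a1 had -5.78 and Ugt2b38 -6.52, without hep-/- replicate 2 Ugt2b38 had -2.80 and Cux2 1.41, and without control replicate 2 Sult2a1 had 6.68 and Sult2a2 5.54. The groups of Slco1a1 overlapped, with 0.778 CPM in control replicate 2 and 1.18 CPM in hep-/- replicate 3. DESeq2 called 7 of 11 female-biased and 5 of 8 male-biased genes, and voom with sample quality weights called 5 and 4, without Cyp2b9 and Slco1a1. Of all genes, DESeq2 called 21.3% and voom 19.7%, in either direction.

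Zonal genes outside the P450s were compared with Cyp2e1 and Cyp1a2. Of 9 tested pericentral genes, 5 fell and 0 rose, with a median log2 fold change of -1.18. Glul, the glutamine synthetase of the cells next to the central vein, measured 1332.5, 985.7, 1569.6 and 1361 CPM in flox/flox mice and 604, 353 and 644 CPM in the mice labelled hep-/-, without overlap (-1.30, adjusted p = 0.012). Rhbg (-2.02), Oat (-1.76), Slc1a2 (-1.57) and Gulo (-1.18) also fell, and the call of Rhbg was lost without hep-/- replicate 1, while without hep-/- replicate 3 its change was -3.21. Axin2 (0.04) and Tbx3 (0.52) did not pass. Lgr5 (-1.01, adjusted p = 0.084) and Rgn (-0.85, adjusted p = 0.071) lay lower without overlap but did not pass in edgeR either. DESeq2 called 7 of the 9, Lgr5 and Rgn among them (21.3% of all genes), and voom with sample quality weights called 6 (19.7% of all genes).

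Of 9 tested periportal genes, edgeR, DESeq2 and voom with sample quality weights each called 0, and 0 had an unadjusted p under 0.05. Their median log2 fold change was -0.19. Ass1 and Hal had 2 mice labelled hep-/- below all controls, as Cyp2f2 did, with replicate 3 among the controls.

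**Figure D4:**
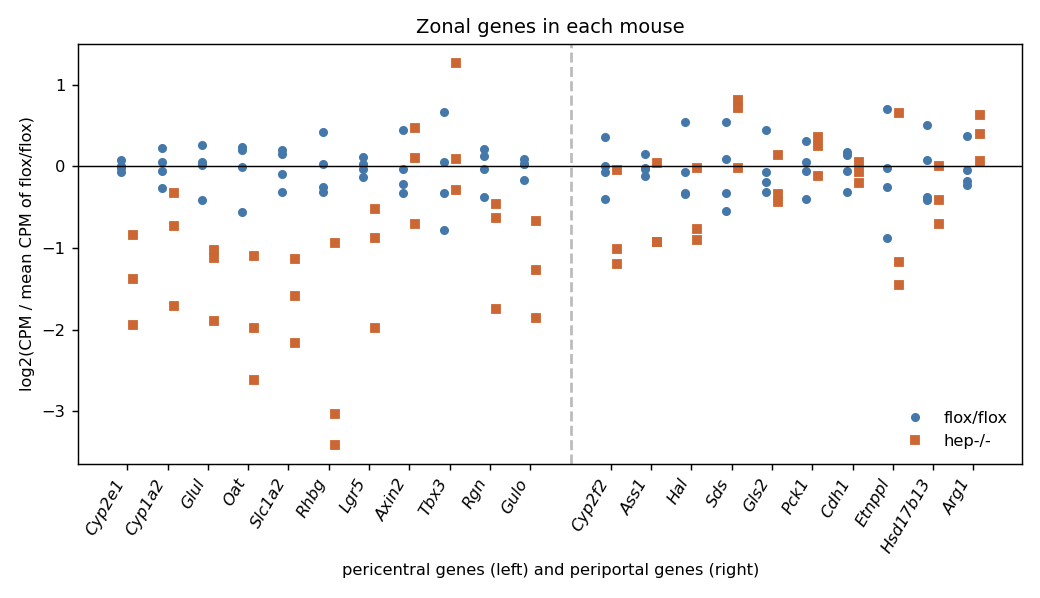
Level of 11 pericentral and 10 periportal genes in each mouse, as the log2 ratio of its CPM to the mean CPM of the 4 flox/flox mice; circles are flox/flox and squares hep-/-. Squares of Cyp2e1, Glul, Oat, Slc1a2, Rhbg and Gulo, the called pericentral genes, lie below every circle, while those of the periportal genes overlap the circles.

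Markers of the cell types in the samples were set beside these values. All 8 hepatocyte markers, whose sums stand above, were well expressed. edgeR called 0 of them, 2 had an unadjusted p under 0.05, and DESeq2 called 1 (Apoa1), and their median log2 fold change was 0.36. Macrophage markers were lower, with 4 of 7 called (Lyz2 -2.15, Adgre1 -1.88, Marco -1.24 and Cd68 -1.15) and summed levels of 858 to 2074 against 406 to 456 CPM. Of all genes, 7.83% were called lower. Without control replicate 3 the change of Adgre1 was -1.27. The call of Marco was lost without control replicate 2 or 3 or hep-/- replicate 2 or 3. Of the endothelial markers, Kdr (-1.33) was called lower of 6, with sums of 72.1 to 291 against 104 to 121 CPM. That call was lost without control replicate 3 (-0.87), without control replicate 4 (-1.27) or without any 1 of the hep-/- mice (-1.23 to -1.44).

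edgeR called 0 of 5 cholangiocyte markers (254 to 656 CPM against 259 to 870), 0 of 8 stellate cell and fibroblast markers (872 to 1292 against 783 to 1341), 0 of 2 enterocyte markers (100 to 191 against 63.7 to 138) and 0 of 1 pancreatic marker (9.43 to 13.8 against 6.09 to 11.1). At an unadjusted p under 0.05 there were 0 in these 4 lists, and DESeq2 called 0. Mitochondrially encoded genes took 3.88% to 7.996% of counts in flox/flox mice and 14.4% to 22.6% in the mice labelled hep-/-. Leaving these 13 genes out before normalization gave 8 called members (15.8% of all genes then). The part of the macrophage markers or of the mitochondrial share in the P450 results was not tested.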

How the data were processed

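RNA-seq of 7 mouse livers (4 B4galt1 flox/flox, 3 labelled B4galt1 hep-/-) was used. The authors deposited counts per gene, whole numbers that had not been normalized, and FPKM values for the same genes. The submitters' processing notes name fastp, HISAT2, HTSeq, DESeq2, R 3.2.0 and GRCm39, and the annotation is not given in the sources used here. No column of sample values was left unused (0).

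Genes were kept by filterByExpr (minimum count 10, minimum total 15; 15179 of 23347), normalized by TMM and tested with the quasi-likelihood F-test of edgeR 4.0.16 (limma 3.58.1, DESeq2 1.42.0, R 4.3.3), with group alone in the model and Benjamini-Hochberg adjustment over all tested genes. A call required an adjusted p under 0.05 together with a log2 fold change beyond 0.58 in size, the thresholds of the study, which used DESeq2. Standard errors came from the F statistic and intervals are 95%. CPM values are TMM-normalized, and 3 counts were 0.0690 to 0.0987 CPM. FPKM served to compare genes with each other. The p-values measure the spread between mice. No 2 of the 21 pairs of libraries were alike (smallest chi-square per gene 56.0).

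The members and gene lists were chosen with earlier results of these data known. Named were the called members, the most abundant of each subfamily by FPKM, sole tested members, sex-biased members and called genes of the lists, up to 6 a list. Other members were named after their values were seen. On counts simulated for this comparison (15233 genes tested), 49 of 50 genes with a log2 change of -2 and 11 of 50 with -1 were called, as were 50 of 50 with 2 and 16 of 50 with 1. Only these genes were changed, all with mean expected counts above 50, and every gene had the same dispersion. In the deposited counts many more genes were called and members such as Cyp3a44 had fewer counts. The simulated shares therefore do not measure how often such changes are called there. Alternatives were other normalizations, filters, tools, FPKM values, a replicate block, each mouse left out and, added after the data were seen, near copies summed. The markers of lymphocytes and neutrophils are not reported here.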

Additional observations from a re-analysis of the deposited data

Results flagged for a closer look

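Single mice stood apart within the flox/flox group in 4 of the 39 genes examined (the 38 tested members and B4galt1) by Dixon's test for groups of 4 mice, a test that flags about 1 group in 20 by chance. Cyp3a44 was highest in flox/flox replicate 2, at 0.402 CPM, with the other 3 controls between 0.207 and 0.234. Cyp2c40 was also highest in flox/flox replicate 2, at 4.32 CPM, against 0.529 to 1.01 in the others. Cyp2s1 was highest in flox/flox replicate 1, at 0.989 CPM, against 0.254 to 0.351. Cyp2c50 was lowest in flox/flox replicate 1, at 255 CPM, against 436 to 467. The cause was not tested in any of them.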

How the results depend on the processing

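Of the 7 called members, 6 kept their direction and their call in every alternative in which they were tested, and Cyp3a44 lost its call with the replicate block alone, while Cyp2c67 was not called once its counts were summed with those of its near copies. The sizes moved more, with Cyp2r1 between -2.09 and -1.16 and Cyp2j9 between 1.63 and 2.51 over the alternatives. The count of called members was 7 of 38 (15.8% of all genes), and was 12 without hep-/- replicate 3 (13.8% of all), 13 with DESeq2 (21.3%), 14 with voom and sample quality weights (19.7%) and, of 29 members tested, 15 with limma on log2(FPKM + 1) (21.02% of all) and on log2(FPKM + 0.1) (23.3%). Leaving out 1 mouse gave 7 to 12 called members (5.9% to 16.1% of all genes), 13 to 18 without overlap (30.7% to 39.9% of all genes, against 28.6% with every mouse) and log2 fold changes of B4galt1 from -0.96 to -0.30. B4galt1 was called at -0.96 without hep-/- replicate 3 and at -0.67 and -0.73 with the 2 FPKM pseudocounts. Without control replicate 2, 3 or 4, hep-/- replicate 2 or with the block, 885, 1405, 1552, 1199 and 1267 genes of all were called, against 2404, and with DESeq2 3281. Of all calls, 50.5% were higher, but 24.5% on log2(FPKM + 1) and 23.6% on log2(FPKM + 0.1), where the median of all genes was -0.14 and -0.18, against -0.051 for the same genes in the edgeR test.

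Directions turned in members that were not called. Cyp2c69 went to -2.12 with the replicate block, -0.12, -0.07 and -3.50 without control replicate 1, control replicate 4 and hep-/- replicate 1, -0.078 and -0.28 with FPKM pseudocounts of 1 and 0.1 and -0.033 with voom. Leaving out 1 mouse moved Cyp2c69 from -3.50 to 1.26, Cyp2c40 from -0.043 (without control replicate 1) to 1.38, Cyp1a1 from -0.30 (without hep-/- replicate 1) to 0.67, Cyp2c37 from -0.10 (the same mouse) to 0.57, Cyp2c70 from -0.24 (without hep-/- replicate 3) to 0.70, Cyp2c55 from -0.24 (the same mouse) to 0.52, Cyp2d12 from -0.36 (the same mouse) to 1.5 and Cyp2c54 from -0.55 to 0.10 (without hep-/- replicate 2), and voom gave 0.12 for Cyp2c54. The causes were not tested. Same-numbered mice did not deviate together (correlations -0.42, -0.10 and 0.09), so the replicate block shares only a number. It called 7 members (8.35% of all genes), with Cyp2c29 (-1.28) gained and Cyp3a44 (2.45) lost. With near copies summed, 6 of 32 were called (15.8% of all genes). Summing by protein identity was not run, since no protein table was used here. Cyp2c69, Cyp2g1 and Cyp2s1 had wide intervals, with few counts in some mice and a wide spread between mice.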

Other observations

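Within the group labelled hep-/-, replicate 2 had the lowest level of the 3 in 26 of the 38 tested members (39.2% of all genes tested) and replicate 3 the highest in 22 (33.1% of all). Replicate 2 also had a summed level of 6269 CPM, against 8743 in replicate 1 and 10674 in replicate 3, and replicate 3 was the mouse with the highest B4galt1 (53.7 CPM) and the lowest mitochondrial share of the group (14.4%). In flox/flox mice replicate 1 was the lowest of the 4 in 17 of the 38 members (29.2% of all genes). These counts are a description of the mice, with no test.

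The members' share of all counts was 1.53% to 1.81% in flox/flox mice and 0.679% to 0.938% in the mice labelled hep-/-. With mitochondrially encoded genes left out of the total, the shares were 1.66% to 1.89% and 0.871% to 1.10%, again without overlap. Cyp2e1 alone took 0.860% to 1.07% of all counts in controls and 0.262% to 0.458% in the others.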
